A study of Acomys cahirinus and Mus musculus with 6 samples.

Results

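Single-cell RNA profiles of healing ear punch wounds in the spiny mouse (Acomys cahirinus), a rodent that regrows punched ear tissue, were compared between animals given an FGFR1/2/3 inhibitor and animals given the vehicle DMSO. The comparison was made in every cell type that the authors annotated with at least 30 cells in both libraries. That held for 16 of 17 types and for 20035 of the 39577 cells of the series, 4763 of them from the FGFR inhibitor library and 15272 from the DMSO library. The inner root sheath (IRS), a sleeve of the growing hair, was the type left out, with 19 FGFR inhibitor cells and 91 DMSO cells.

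Both groups were spiny mice labelled wild-type, injected from day 12 to day 15, and both samples were skin of the ear pinna. The number, age and sex of the animals in each group are not stated in the labels. Each group was 1 library, so a difference is one between 2 libraries. No test was run, and every interval is a 95% interval that covers counting error only. The series has 6 libraries in all, 4 of them from spiny mice.

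FGFs are secreted ligands of the receptor tyrosine kinases Fgfr1 to Fgfr4. The activated receptors signal through the adaptor Frs2, RAS and the kinase ERK, and ERK switches on the transcription factors Etv4 and Etv5 and a set of inhibitors of the same pathway, among them the phosphatase Dusp6 and the Sprouty (Spry) and Spred proteins. In skin, Fgfr2 is known as the receptor of epithelial cells, Fgfr1 as a receptor of mesenchymal cells, and Fgfr3 in cartilage as a brake on chondrocyte proliferation.

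The FGFR inhibitor library held 4782 cells and 33564162 unique molecular identifiers (UMIs), the median cell holding 5162.5. The DMSO library held 15363 cells and 70058081 UMIs, the median cell holding 3125. Among the cell barcodes, 23 occurred in both libraries. No doublet caller was run. UMIs were summed per library and cell type and scaled to counts per 1000000 UMIs of that type (CPM), and ratios are log2 of FGFR inhibitor over DMSO with 1 UMI added to each count. A gene was read when both libraries together held at least 30 UMIs of it, and counted as higher or lower from 1.5-fold. Gene names are those of the mouse, under which the reads had been counted.

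Droplets also pick up RNA released by other cells, and this differed between the libraries. Endothelial cells had 1.32% of their UMIs in the 12 keratinocyte markers in the FGFR inhibitor library and 3.66% in the DMSO library. In chondrocytes they took 1.25% in the FGFR inhibitor library and 3.65% in the DMSO library, and in T cells 1.46% in the FGFR inhibitor library and 4.37% in the DMSO library. In each of these types, 1 of the 12 markers was at 0 in both libraries. Markers of the cells' own type went the other way in many types, with a median log2 ratio of 0.76 over 16 markers in endothelium, 0.78 over 9 in T cells and 1.04 over 7 in B cells, but 0.04 over 16 in chondrocytes and 0.21 in the hair germ type. The part of these shifts in the ratios below was not tested, and several medians are also given centred on a type's own markers. Lists of a type's identity genes share members with those markers, so their centred medians near 0 were partly set by the centring. Levels of genes in types that should lack them, such as keratins in B cells, are given as the background.

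The authors' names were checked against marker lists through each cluster's 10 leading genes. Clusters of the hair germ, chondrocyte, T cell, B cell and dendritic types each had at least 1 marker of their own among these genes, as did the sebaceous clusters 4, 20 and 36, while the sebaceous cluster 18 had none. Cluster 12, named outer root sheath (ORS), had only Krt79, which is on both the hair follicle and the sebaceous list. Its name is therefore the authors' and was not settled by the markers. In the endothelial type, cluster 8 led with venous genes (Ackr1, Sele, Selp), cluster 29 with capillary and tip cell genes (Kdr, Gpihbp1, Esm1) and cluster 17 with 4 lymphatic markers (Ccl21a, Prox1, Mmrn1, Reln) and 1 endothelial marker. Cluster 6, named resident macrophages, led with lectin genes such as Cd209d and Cd209a and with Cd163, Gpr34 and F13a1. Only 1 of these 10 genes was on a marker list, the dendritic Cd209a, too few to settle the name. Other names went against the markers. Cluster 45, also named resident macrophages, led with 5 mast cell markers, and cluster 7, named circulating monocytes, led with 3 neutrophil markers. Cluster 38, named dermal sheath/papilla, led with 5 mural or smooth muscle markers, and cluster 34, named fibroblasts, led with 3 skeletal muscle markers. These clusters, and cluster 6, are given by number.

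Sebaceous cells and the hair germ type took a larger share of the FGFR inhibitor library, and endothelial cells a smaller one. Sebaceous cells, which fill with lipid and release it onto the hair, made up 12.7% [11.8, 13.7] of FGFR inhibitor cells and 9.14% [8.69, 9.61] of DMSO cells, a log2 ratio of 0.47 [0.33, 0.61]. The hair germ and outer bulge type, which holds follicle stem and progenitor cells, made up 7.76% [7.02, 8.55] of FGFR inhibitor cells and 6.01% [5.64, 6.40] of DMSO cells, a log2 ratio of 0.37 [0.19, 0.54]. Endothelial cells were 5.02% [4.42, 5.68] of the FGFR inhibitor library and 6.36% [5.98, 6.76] of the DMSO library, a log2 ratio of -0.34 [-0.55, -0.14]. The outer root sheath type (ORS) had a log2 ratio of 0.10 [-0.17, 0.37] and chondrocytes one of -0.13 [-0.49, 0.23], both with intervals that include 0. The inner root sheath type, too small for gene ratios, had one of -0.58 [-1.37, 0.15].

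Among immune types, B cells stood highest, with 59 of the FGFR inhibitor cells (1.23%) and 91 of the DMSO cells (0.592%), a log2 ratio of 1.06 [0.56, 1.55]. T cells, at 2.30% of FGFR inhibitor cells and 2.16% of DMSO cells, and dendritic cells, at 0.711% of FGFR inhibitor cells and 0.579% of DMSO cells, had intervals that include 0. Resident macrophages as annotated had a log2 ratio of -0.40 [-0.70, -0.11]. Within this type the mast cell cluster 45 held 4 FGFR inhibitor cells and 94 DMSO cells, a log2 ratio of -2.87 [-4.78, -1.47], and cluster 6 alone had -0.15 [-0.46, 0.15]. The mural cluster 38 held 59 FGFR inhibitor cells and 99 DMSO cells, a log2 ratio of 0.94 [0.45, 1.42].

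The interfollicular epidermis (IFE) held the larger part of both libraries. Its basal type was 21.1% of FGFR inhibitor cells and 26.2% of DMSO cells, its cycling basal type 6.46% of FGFR inhibitor cells and 9.30% of DMSO cells, and its suprabasal type 25.1% of FGFR inhibitor cells and 19.5% of DMSO cells. Shares depend on depth here. Counting only cells of at least 2000 UMIs, the log2 ratio was -0.63 for B cells, -0.05 for cluster 38, 0.06 for sebaceous cells and 1.09 for the hair germ type, and endothelium kept -0.22. In the ErbB2 inhibitor library, another spiny mouse library set against the same DMSO cells, sebaceous cells made up 13.2%, hair germ cells 8.86%, endothelial cells 4.05% and B cells 0.263%.

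The receptors that the inhibitor targets were read first. Over all cells, Fgfr1 stood at 22.3 CPM in the FGFR inhibitor library and 23.8 CPM in the DMSO library, and Fgfr2 at 39.5 CPM in the FGFR inhibitor library and 43.4 CPM in the DMSO library. Fgfr3 stood at 3.19 CPM in the FGFR inhibitor library and 2.98 CPM in the DMSO library. Their log2 ratios over all cells were close to 0, at -0.10 for Fgfr1, -0.13 for Fgfr2 and 0.10 for Fgfr3. Within types, Fgfr1 stood at 481 CPM in FGFR inhibitor chondrocytes and 399 CPM in DMSO chondrocytes, a log2 ratio of 0.27 [0.00, 0.53]. In hair germ cells Fgfr1 had 190 CPM in the FGFR inhibitor library and 139 CPM in the DMSO library, a log2 ratio of 0.45. In the mural cluster 38 the ratio was 1.12 [0.10, 2.16], on 19 FGFR inhibitor UMIs and 17 DMSO UMIs.

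Fgfr2 differed little in the epithelial types where it was read from many UMIs. It stood at 79.2 CPM in FGFR inhibitor basal IFE cells and 73.8 CPM in DMSO basal IFE cells (log2 ratio 0.10), and at 96.4 CPM in FGFR inhibitor hair germ cells and 85.5 CPM in DMSO hair germ cells (0.18). In sebaceous cells it was lower, at 16.7 CPM in the FGFR inhibitor library and 24.6 CPM in the DMSO library (-0.54). In endothelium only 6 FGFR inhibitor UMIs and 63 DMSO UMIs of Fgfr2 were counted, a log2 ratio of -1.35 [-3.05, -0.35] that was 0.00 in thinned cells, in a type where the share of keratinocyte markers was also lower. Fgfr3 passed the minimum of UMIs only in IFE types, with 6.43 CPM in FGFR inhibitor basal cells and 5.42 CPM in DMSO basal cells.

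The feedback genes did not move as one group. Dusp6, the ERK phosphatase, was higher in basal and suprabasal IFE cells of the FGFR inhibitor library. It stood at 33.7 CPM in FGFR inhibitor basal IFE cells and 19.3 CPM in DMSO basal IFE cells, a log2 ratio of 0.80 [0.56, 1.04]. In endothelium it stood at 74.3 CPM in the FGFR inhibitor library and 43.6 CPM in the DMSO library, a log2 ratio of 0.78 [0.28, 1.24] that was 0.027 when centred on endothelial markers. The ratio was 0.88 [0.56, 1.20] in suprabasal IFE and 0.65 [0.09, 1.17] in the annotated resident macrophages, and -0.37 there when centred on the type's own markers. In the cycling IFE type Dusp6 differed little, at 24.3 CPM in the FGFR inhibitor library and 23.6 CPM in the DMSO library. In hair germ cells the ratio was 0.53 [-0.20, 1.24] on 31 FGFR inhibitor UMIs and 40 DMSO UMIs, and 35.5% of the FGFR inhibitor UMIs lay in 1 cell. With the ErbB2 inhibitor, Dusp6 stood at 14.96 CPM in basal IFE cells and 31.5 CPM in endothelium.

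Etv4, an ERK-induced transcription factor, went in opposite directions between types. In basal IFE cells it stood at 14.6 CPM in the FGFR inhibitor library and 23.5 CPM in the DMSO library, a log2 ratio of -0.68 [-1.01, -0.37]. In hair germ cells it had 39.9 CPM in the FGFR inhibitor library and 64.5 CPM in the DMSO library, a log2 ratio of -0.67 [-1.24, -0.17]. In chondrocytes it had 17 FGFR inhibitor UMIs and 18 DMSO UMIs from libraries of unequal depth, which is 48.1 CPM in the FGFR inhibitor library and 17.3 CPM in the DMSO library, a log2 ratio of 1.48 [0.43, 2.52]. Spry2, a receptor pathway inhibitor, was at 33.3 CPM in FGFR inhibitor sebaceous cells and 45.9 CPM in DMSO sebaceous cells (-0.46 [-0.75, -0.19]), and Spred1, another inhibitor of the cascade, at 25.7 CPM in FGFR inhibitor endothelium and 11.3 CPM in DMSO endothelium (1.21 [0.28, 2.06]). Spry1 was listed at 0 UMIs and Spry4 had at most 4 UMIs in a library.

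Over the list of 21 ERK feedback targets, members read per type were few. In endothelium 4 of 9 were higher and 0 lower (median 0.13), where 15.2% of all 7384 genes read were higher and 9.47% lower. In basal IFE 3 of 14 were higher and 2 lower (median 0.20), against 4.19% higher and 8.48% lower of all genes. In sebaceous cells 3 of 11 were higher and 2 lower (median -0.10), against 3.5% higher and 8.23% lower of all genes. Chondrocytes had 2 of 6 higher and 0 lower (median 0.26), with 12.8% of all genes higher and 11.7% lower. Hair germ cells had 1 of 9 higher and 1 lower (median 0.16), with 10.6% of all genes higher and 6.47% lower. Centred on the type's own markers, the endothelial median was -0.63.

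**Figure D1:**
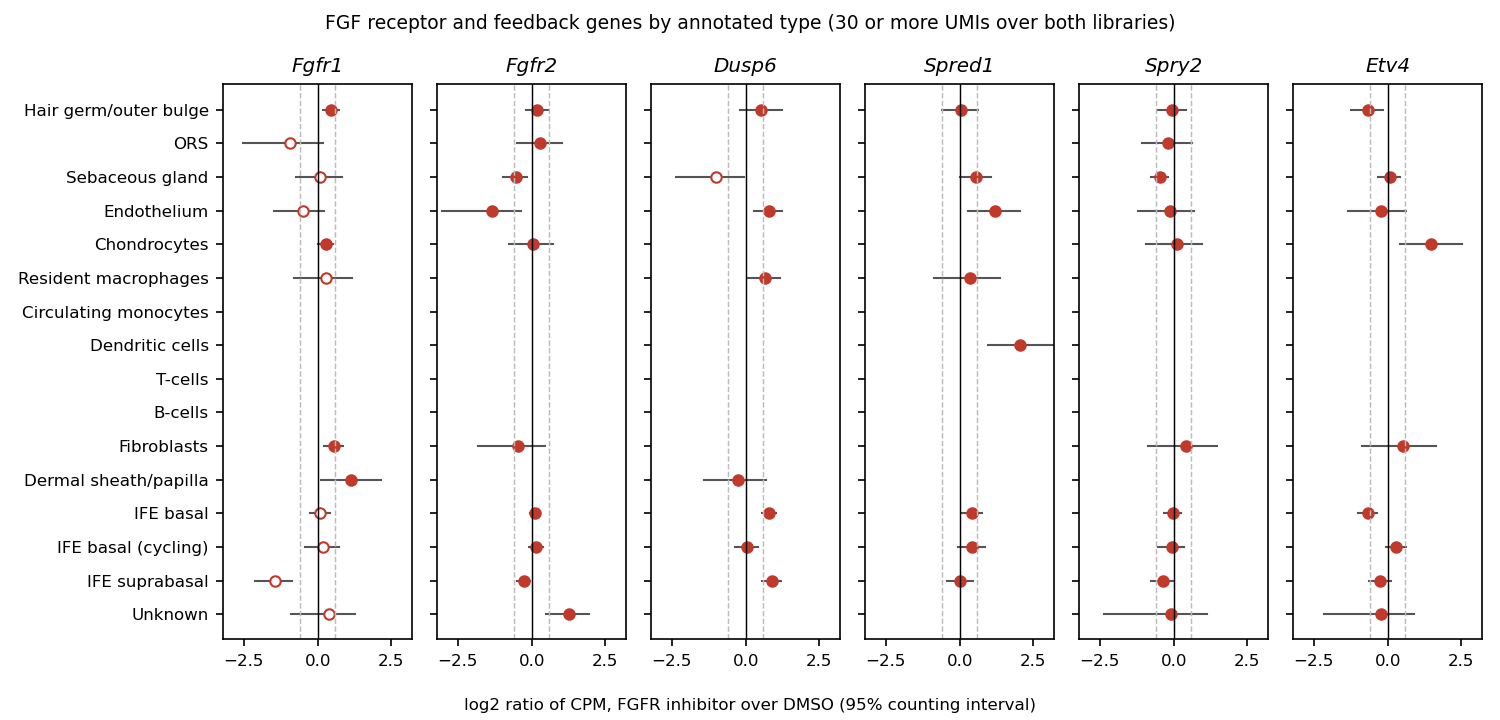
Log2 ratio of CPM, FGFR inhibitor over DMSO (x axis), of FGF receptors and feedback genes in the types where each had at least 30 UMIs, with 95% intervals for counting error; each point sets 1 library against 1 library. Dusp6 lies at 0.80 in basal IFE, while Etv4 lies at -0.68 there and at 1.48 in chondrocytes.

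In the hair germ and outer bulge type, some genes of follicle stem cells and of hair signalling were higher in the FGFR inhibitor library and 0 were lower. Of the differentiation and cell cycle genes, Krt10, Krt16 and Top2a stood no higher there than in B cells of the same library. Sums rested on 371 cells and 1026895 UMIs in the FGFR inhibitor library and 923 cells and 1906287 UMIs in the DMSO library. Of 13 stem and bulge genes read, 5 were higher and 0 lower, where 10.6% of all 6694 genes were higher and 6.47% lower. Their median was 0.39, beside 0.10 over all genes. Cxcl14, a chemokine, stood at 458 CPM in the FGFR inhibitor library and 217 CPM in the DMSO library, a log2 ratio of 1.08 [0.88, 1.27]. A Cxcl14 UMI was seen in 49.9% of FGFR inhibitor cells and 29.3% of DMSO cells. After every cell was thinned to 1000 UMIs, which left out shallower cells, it was seen in 31.0% of 349 FGFR inhibitor cells and 18.6% of 856 DMSO cells. In basal IFE cells the thinned shares were 4.88% in the FGFR inhibitor library and 4.97% in the DMSO library.

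Krt15, a keratin of bulge stem cells, had 6684 CPM in the FGFR inhibitor library and 4088 CPM in the DMSO library (log2 ratio 0.71 [0.66, 0.76]). Dkk3, a secreted protein of the Dickkopf family, had 190 CPM in the FGFR inhibitor library and 118 CPM in the DMSO library (0.69 [0.40, 0.97]). The stem cell factors Sox9 and Lgr5 did not differ that far. Sox9 stood at 408 CPM in the FGFR inhibitor library and 383 CPM in the DMSO library (0.09), and Lgr5, a receptor that amplifies WNT signals, at 95.4 CPM in the FGFR inhibitor library and 84.5 CPM in the DMSO library (0.18).

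The list of hair WNT, BMP and hedgehog genes had 5 of 15 members higher and 0 lower (median 0.31). Of all genes, 10.6% were higher and 6.47% lower. Id1, Id2 and Id3, BMP targets that inhibit differentiation factors, were among the 5 members. Id3 stood at 687 CPM in the FGFR inhibitor library and 454 CPM in the DMSO library (log2 ratio 0.60), Id1 at 285 CPM in the FGFR inhibitor library and 183 CPM in the DMSO library (0.64), and Id2 had a ratio of 0.62. Fst, which binds activin, had 669 CPM in the FGFR inhibitor library and 470 CPM in the DMSO library (0.51). The 3 Id genes passed 1.5-fold and Fst stayed below it.

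Of 18 differentiation genes 14 were lower and 0 higher in hair germ cells (median -0.95), where 6.47% of all genes were lower and 10.6% higher. Krt10, a suprabasal keratin, stood at 3716 CPM in the FGFR inhibitor library and 10953 CPM in the DMSO library (-1.56), and Krt16, a wound keratin, at 128 CPM in the FGFR inhibitor library and 281 CPM in the DMSO library (-1.13). B cells, which do not make keratins, held 9843 CPM of Krt10 in the FGFR inhibitor library and 19649 CPM in the DMSO library, and 576 CPM of Krt16 in the FGFR inhibitor library and 558 CPM in the DMSO library. In FGFR inhibitor B cells, 1 cell held 69.0% of the Krt16 UMIs. B cells were also shallower, with a median of 1124 UMIs (FGFR inhibitor) and 1235 UMIs (DMSO), against 2672 and 1704 in hair germ cells. Whether Krt10 and Krt16 RNA in hair germ cells was background was not tested. Neither gene was read as a difference of hair germ cells. Krt5, a basal keratin, differed little (0.06) at 9161 CPM in the FGFR inhibitor library and 8769 CPM in the DMSO library. The summed keratinocyte markers in this type were 3.19% of UMIs in the FGFR inhibitor library and 4.47% in the DMSO library. Of 20 cell cycle genes 11 were lower and 0 higher (median -0.62). Top2a, the mitotic topoisomerase, had 11.7 CPM in the FGFR inhibitor library and 53.0 CPM in the DMSO library (-2.08 [-3.18, -1.31]). B cells had 13.7 CPM of Top2a in the FGFR inhibitor library, from 1 UMI, and 94.4 CPM in the DMSO library, from 12. So few UMIs do not fix a background for Top2a, which was lower still in suprabasal IFE cells of both libraries.

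The leading genes of the hair germ type were the synaptic anchor Rapsn, the amyloid precursor App, Cxcl14, the histone demethylase Kdm1a and the muscle-linked LIM protein Fhl1. App stood at 430 CPM in the FGFR inhibitor library and 203 CPM in the DMSO library (1.08 [0.88, 1.28]), and Rapsn at 64.3 CPM in the FGFR inhibitor library and 29.4 CPM in the DMSO library (1.13). The lowest were Ccer2, Jup, Hspb3, Mt2 and Calr. Jup, a desmosome protein, stood at 110 CPM in the FGFR inhibitor library and 421 CPM in the DMSO library (-1.92), and Calr, a chaperone of the endoplasmic reticulum, at 167 CPM in the FGFR inhibitor library and 400 CPM in the DMSO library (-1.26). Ccer2 had 0 UMIs in the FGFR inhibitor library and 1003 in the DMSO library, at least 180-fold lower against a floor of 3 UMIs, but its DMSO UMIs came from 9 cells.

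In the type annotated as ORS, represented by cluster 12, immediate early genes were higher in the FGFR inhibitor library. The basal keratinocyte genes Krt5, Krt14 and Col17a1 stood no higher in CPM than in B cells. Cluster 12 led with Krt79, Cst6 and Gata6, and its sums rested on 157 FGFR inhibitor cells and 470 DMSO cells. Of 12 basal keratinocyte genes 7 were lower and 0 higher (median -0.74), where 8.33% of all genes were higher and 7.25% lower. Krt5 stood at 2922 CPM in the FGFR inhibitor library and 6162 CPM in the DMSO library (-1.08), beside 3413 CPM in FGFR inhibitor B cells and 7367 CPM in DMSO B cells (-1.11). Krt14, its partner, stood at 564 CPM in the FGFR inhibitor library and 1275 CPM in the DMSO library, beside 631 CPM in FGFR inhibitor B cells and 1329 CPM in DMSO B cells. Col17a1, a hemidesmosome collagen, had 188 CPM in the FGFR inhibitor library and 317 CPM in the DMSO library, beside 219 CPM in FGFR inhibitor B cells and 401 CPM in DMSO B cells. A Krt5 UMI was found in 149 of 157 FGFR inhibitor cells and 470 of 470 DMSO cells of the ORS type, and also in 54 of 59 FGFR inhibitor B cells and 91 of 91 DMSO B cells. In FGFR inhibitor B cells, 1 cell held 31.7% of the Krt5 UMIs and 37.0% of the Krt14 UMIs. B cells were also shallower, with a median of 1124 UMIs (FGFR inhibitor) and 1235 UMIs (DMSO), against 5605 and 2701.5 in ORS cells. Equal CPM therefore does not place Krt5, Krt14 and Col17a1 at the background, and whether their RNA was background was not tested. None of these 3 genes was read as a difference of ORS cells.

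Cst6, a cysteine protease inhibitor of cornifying epithelium, had 13310 CPM in FGFR inhibitor ORS cells and 8595 CPM in DMSO ORS cells (0.63), and Klk7, a skin protease, 3742 CPM in the FGFR inhibitor library and 2557 CPM in the DMSO library (0.55). Krt17, a follicle keratin, had 5636 CPM in the FGFR inhibitor library and 3909 CPM in the DMSO library (0.53), and Krt79, a keratin of the follicle canal, 9777 CPM in the FGFR inhibitor library and 7382 CPM in the DMSO library (0.41). Of these 4 genes, Cst6 alone passed 1.5-fold. Immediate early genes, the first to be transcribed after a stimulus, were higher in 8 of 12 (median 0.91). The leading gene of the type was Fos, with 448 CPM in the FGFR inhibitor library and 30.2 CPM in the DMSO library, a log2 ratio of 3.86 [3.45, 4.36]. Txnip, an inhibitor of thioredoxin, followed with 192 CPM in the FGFR inhibitor library and 79.1 CPM in the DMSO library (1.28). With the ErbB2 inhibitor Fos stood at 15.4 CPM and Txnip at 206 CPM in this type.

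Hair shaft and inner root sheath genes were scarce in the FGFR inhibitor library as a whole. Krt86, a hair shaft keratin, had 7 UMIs in the FGFR inhibitor library and 3309 in the DMSO library, and Krt83, another, had 47 in the FGFR inhibitor library and 5424 in the DMSO library. Krtap13-1, a keratin-associated protein that crosslinks the shaft, had 0 UMIs in the FGFR inhibitor library and 3990 in the DMSO library. The ErbB2 inhibitor library had 9 UMIs of Krt86, 90 of Krt83 and 16 of Krtap13-1, so the DMSO library stood apart from both. Of the inner root sheath genes, Krt71 had 79.5 CPM in the FGFR inhibitor library and 345 CPM in the DMSO library, and Tchh 41.8 CPM in the FGFR inhibitor library and 573 CPM in the DMSO library.

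In sebaceous cells most genes of the sebocyte lipid list stayed below 1.5-fold, and 5 were higher in the FGFR inhibitor library. The sums held 607 cells and 4359146 UMIs in the FGFR inhibitor library and 1404 cells and 8424636 UMIs in the DMSO library. Of 32 sebocyte lipid genes 5 were higher and 2 lower, where 3.5% of all 8716 genes were higher and 8.23% lower. Their median was 0.18, beside -0.05 over all genes. Elovl4, which elongates very long chain fatty acids, stood at 549 CPM in the FGFR inhibitor library and 259 CPM in the DMSO library (1.09 [1.0, 1.17]). Awat2, a wax ester synthase, had 260 CPM in the FGFR inhibitor library and 126 CPM in the DMSO library (1.05 [0.93, 1.17]), and its relative Awat1 860 CPM in the FGFR inhibitor library and 470 CPM in the DMSO library (0.87). Far1, which makes the fatty alcohols of waxes, had 31.2 CPM in the FGFR inhibitor library and 10.9 CPM in the DMSO library (1.51 [1.12, 1.91]). The fifth, the transcription factor Prdm1, had 17 UMIs in the FGFR inhibitor library and 19 in the DMSO library (0.80 [-0.24, 1.81]).

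The share of cells with a UMI was larger in the FGFR inhibitor library for Awat2 and Elovl4. Awat2 was seen in 20.9% of FGFR inhibitor cells and 13.2% of DMSO cells, and after thinning to 1000 UMIs in 12.4% of 507 FGFR inhibitor cells and 4.798% of 1334 DMSO cells. Elovl4 was seen in 31.3% of FGFR inhibitor cells and 17.3% of DMSO cells, and after thinning in 21.7% of FGFR inhibitor cells and 8.77% of DMSO cells. In basal IFE cells the thinned shares were 0.598% with the FGFR inhibitor and 0.377% with DMSO for Awat2, and 1.20% with the FGFR inhibitor and 1.73% with DMSO for Elovl4.

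Fasn, the fatty acid synthase, stood at 1413 CPM in the FGFR inhibitor library and 1325 CPM in the DMSO library (0.09), and Plin2, a lipid droplet coat protein, at 1860 CPM in the FGFR inhibitor library and 1943 CPM in the DMSO library (-0.06). Pparg, the master regulator of sebocytes, had 194 CPM in the FGFR inhibitor library and 178 CPM in the DMSO library (0.12). The 2 members lower by at least 1.5-fold were Dgat2, a triglyceride enzyme with 19.5 CPM in the FGFR inhibitor library and 31.2 CPM in the DMSO library (-0.67), and Acsl1, which activates fatty acids, with 11 FGFR inhibitor UMIs and 42 DMSO UMIs (-0.89 [-2.09, 0.00], and 0.66 in thinned cells). Among 19 genes of cholesterol synthesis 1 was higher and 0 lower (median 0.02).

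The leading sebaceous genes were Bglap, Ces4a, Ngb, Pctp and Serpina5. Serpina5, a protease inhibitor, stood at 399 CPM in the FGFR inhibitor library and 123 CPM in the DMSO library (1.70 [1.59, 1.81]), and was seen after thinning in 11.1% of FGFR inhibitor cells and 3.45% of DMSO cells, beside 0.598% of FGFR inhibitor basal IFE cells and 0.603% of DMSO basal IFE cells. Ces4a, a carboxylesterase, had 120 CPM in the FGFR inhibitor library and 33.0 CPM in the DMSO library (1.86), and Pctp, a phosphatidylcholine carrier, 46.3 CPM in the FGFR inhibitor library and 13.7 CPM in the DMSO library (1.76). Serpina5, Ngb and Bglap were among the genes that defined cluster 36 within the type. In cluster 4, another sebaceous cluster, Serpina5 had 110 UMIs in the FGFR inhibitor library and 12 in the DMSO library (4.43), and Elovl4 493 CPM in the FGFR inhibitor library and 67.1 CPM in the DMSO library (2.86). The lowest gene, the cornified envelope gene Lce3b, had 1 UMI in the FGFR inhibitor library and 144 in the DMSO library, from 15 DMSO cells.

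In the endothelial type, vessel identity and immediate early genes were higher on the CPM scale in the FGFR inhibitor library. Sums rested on 240 cells and 740410 UMIs in the FGFR inhibitor library and 977 cells and 2660105 UMIs in the DMSO library. Of 17 identity genes 15 were higher and 0 lower (median 0.73, beside 0.10 over all genes), where 15.2% of all genes were higher and 9.47% lower. Vwf, a clotting factor carrier stored by endothelium, stood at 1342 CPM in the FGFR inhibitor library and 735 CPM in the DMSO library (0.87 [0.76, 0.98]). Kdr, the main VEGF receptor, had 281 CPM in the FGFR inhibitor library and 169 CPM in the DMSO library (0.74, and -0.02 centred on the type's own markers), and Cdh5, the junctional cadherin, 142 CPM in the FGFR inhibitor library and 71.4 CPM in the DMSO library (1.0). Centred on the type's own markers, several of which are in this list, the median was -0.02.

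Sprouting genes were higher in 7 of 15 with 0 lower (median 0.54, and -0.21 when centred on the type's own markers). Angpt2, which loosens vessels, had 74.3 CPM in the FGFR inhibitor library and 35.7 CPM in the DMSO library (1.07 [0.55, 1.55]), while the tip cell gene Esm1 had 59.4 CPM in the FGFR inhibitor library and 55.6 CPM in the DMSO library (0.12). Among 8 capillary transport genes 5 were higher and 2 lower (median 0.67, and -0.081 when centred). Cd36, a fatty acid receptor, had 253 CPM in the FGFR inhibitor library and 125 CPM in the DMSO library (1.02), and Aqp1, a water channel, 35 FGFR inhibitor UMIs and 37 DMSO UMIs (1.77 [1.06, 2.47]). Rgcc, a regulator of the cell cycle and of complement response, was lower, with 230 CPM in the FGFR inhibitor library and 367 CPM in the DMSO library (-0.67 [-0.92, -0.44]).

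Immediate early genes were higher in 10 of 12 endothelial members (median 1.04, and 0.29 when centred on the type's own markers). Klf2, a flow-responsive factor, stood at 860 CPM in the FGFR inhibitor library and 419 CPM in the DMSO library (1.04 [0.90, 1.18]), and Nr4a1 had 34 UMIs in the FGFR inhibitor library and 31 in the DMSO library (1.97). Of 21 cell cycle genes 13 were lower and 0 higher (median -0.66). Cenpf, a kinetochore protein, had 10 UMIs in the FGFR inhibitor library and 218 in the DMSO library (-2.47 [-3.68, -1.69]). Top2a had 31.1 CPM in the FGFR inhibitor library and 104 CPM in the DMSO library (-1.69). The DMSO level was near the 94.4 CPM of DMSO B cells, which rests on few UMIs.

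The clusters within the type shared some of these patterns. In the venous cluster 8, 14 of 16 identity genes were higher (median 0.80, and -0.042 when centred on endothelial markers), with 17.9% of all genes higher and 11.8% lower, and 10 of 10 venous and leukocyte adhesion genes were higher (median 0.85, and 0.015 when centred). Sele, an adhesion molecule that captures leukocytes, had 252 CPM in FGFR inhibitor cells and 135 CPM in DMSO cells there (0.91 [0.53, 1.27]). In the capillary cluster 29, 6 of 16 identity genes were higher (median 0.51, and -0.075 when centred), with 12.8% of all genes higher and 9.2% lower, and of 7 venous genes 2 were higher and 2 lower. Gja4, a gap junction protein of arterial endothelium, had 348 CPM in FGFR inhibitor cells and 92.6 CPM in DMSO cells of cluster 29 (1.91 [1.46, 2.37]), and was seen after thinning in 12 of 60 FGFR inhibitor cells and 9 of 234 DMSO cells. The background after thinning was 1 of 1004 FGFR inhibitor basal IFE cells and 6 of 3981 DMSO basal IFE cells.

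In the lymphatic cluster 17, 9 of 13 identity genes were higher (median 0.66, and -0.066 when centred on its own markers), with 19.9% of all genes higher and 11.9% lower. Ccl21a, the chemokine by which lymphatic vessels attract dendritic cells, stood at 5884 CPM in FGFR inhibitor cells and 1396 CPM in DMSO cells (2.08 [1.92, 2.24]), and 1 cell held 39.1% of its FGFR inhibitor UMIs. It was seen in 31.6% of FGFR inhibitor cells and 18.2% of DMSO cells, and after thinning in 36.8% of 57 FGFR inhibitor cells and 24.1% of 216 DMSO cells. Its background after thinning was 0 of 1004 FGFR inhibitor basal IFE cells, which allows a share of up to 0.299%, and 13 of 3981 DMSO basal IFE cells. Mcpt4, a mast cell protease, had 1 UMI in FGFR inhibitor cells and 213 UMIs in DMSO cells of this cluster, and the mast cell cluster 45 was likewise smaller in the FGFR inhibitor library.

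In chondrocytes, a few secreted proteins were several-fold higher in the FGFR inhibitor library, cartilage matrix genes were mixed, and cholesterol synthesis genes were lower. Sums rested on 85 cells and 353204 UMIs in the FGFR inhibitor library and 298 cells and 1042014 UMIs in the DMSO library. Chil1, a chitinase-like glycoprotein secreted by chondrocytes, stood at 10900 CPM in the FGFR inhibitor library and 1916 CPM in the DMSO library, a log2 ratio of 2.51 [2.43, 2.59]. It was seen in 70.6% of FGFR inhibitor cells and 49.0% of DMSO cells, and after thinning in 52.4% of 84 FGFR inhibitor cells and 35.9% of 290 DMSO cells. In basal IFE cells the thinned shares were 2.39% with the FGFR inhibitor and 2.56% with DMSO. With the ErbB2 inhibitor Chil1 stood at 5238 CPM.

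Trf, the iron carrier transferrin, stood at 1203 CPM in FGFR inhibitor chondrocytes and 236 CPM in DMSO chondrocytes (2.35 [2.12, 2.58]). The other leading genes rested on few cells. Hp, haptoglobin, had 112 UMIs in 6 FGFR inhibitor cells and 18 UMIs in 5 DMSO cells, and 1 cell held 76.0% of the FGFR inhibitor UMIs of Angptl7 and 50.5% of those of the metallothionein Mt2. The lowest included Igfbp2, an IGF binding protein, with 116 CPM in the FGFR inhibitor library and 419 CPM in the DMSO library (-1.82), and Jup (-2.68).

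Of 22 cartilage matrix genes and regulators 6 were higher and 1 lower (median 0.18, beside 0.03 over all 5065 genes). Of all genes, 12.8% were higher and 11.7% lower. Epyc, a small proteoglycan of growth plate cartilage, had 515 CPM in the FGFR inhibitor library and 232 CPM in the DMSO library (1.15 [0.86, 1.43]), and Chad, chondroadherin, 105 CPM in the FGFR inhibitor library and 47.0 CPM in the DMSO library (1.16 [0.50, 1.80]). The fibrillar collagen of cartilage, Col2a1, stood at 592 CPM in the FGFR inhibitor library and 819 CPM in the DMSO library (-0.46 [-0.69, -0.25]), and Col9a1 at 167 CPM in the FGFR inhibitor library and 254 CPM in the DMSO library (-0.59 [-1.04, -0.19]). Acan, the aggrecan core protein, was close to equal, with 682 CPM in the FGFR inhibitor library and 686 CPM in the DMSO library and a ratio interval of -0.22 to 0.20. Sox9, the chondrocyte regulator, had 549 CPM in the FGFR inhibitor library and 471 CPM in the DMSO library (0.23).

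Among other matrix genes of chondrocytes, Ccn2, a matricellular growth factor binder, was higher and Fn1, fibronectin, lower. Ccn2 stood at 3992 CPM in the FGFR inhibitor library and 1734 CPM in the DMSO library (1.20 [1.10, 1.3]), and Fn1 at 260 CPM in the FGFR inhibitor library and 630 CPM in the DMSO library (-1.26 [-1.60, -0.96]). The metalloproteinase inhibitors Timp1, Timp2 and Timp3 were all higher. Timp3 had 484 CPM in the FGFR inhibitor library and 170 CPM in the DMSO library (1.51 [1.20, 1.82]), Timp2 597 CPM in the FGFR inhibitor library and 296 CPM in the DMSO library (1.02), and Timp1 a ratio of 1.11.

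Of 17 cell cycle genes in chondrocytes 16 were lower and 0 higher (median -1.85, and -0.80 in thinned cells). Over all genes of the type, 11.7% were lower and 12.8% higher. Top2a had 11.3 CPM in the FGFR inhibitor library and 89.3 CPM in the DMSO library (-2.67 [-4.88, -1.57]). These were no higher than the 13.7 CPM of FGFR inhibitor B cells and 94.4 CPM of DMSO B cells, which rest on few UMIs. Ccnb2, a mitotic cyclin, had 0 in the FGFR inhibitor library and 79 in the DMSO library, at least 8.93-fold lower against a floor of 3 UMIs. Of 11 cholesterol synthesis genes 7 were lower and 0 higher (median -0.74). Cyp51, a demethylase of the sterol ring, had 56.6 CPM in the FGFR inhibitor library and 119 CPM in the DMSO library (-1.01 [-1.83, -0.38]), and Fdps, farnesyl diphosphate synthase, 133 CPM in the FGFR inhibitor library and 239 CPM in the DMSO library (-0.82, and 0.23 in thinned cells). Of 9 cytokine genes 8 were lower (median -0.86), most of them with few FGFR inhibitor UMIs. Leaving out cells led by markers of another type kept only 27 of the 85 FGFR inhibitor chondrocytes and 44 of the 298 DMSO chondrocytes. In these the cytokine median was 0.09, the matrix median -0.28 and the cell cycle median -0.78. The Top2a ratio was 0.36, on few FGFR inhibitor UMIs.

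Cluster 6, annotated as resident macrophages, had more complement and repair macrophage transcripts in the FGFR inhibitor library. Sums rested on 115 cells and 496359 UMIs in the FGFR inhibitor library and 410 cells and 1220807 UMIs in the DMSO library. Of 16 tissue macrophage genes read, 15 were higher and 0 lower (median 1.45), where 14.6% of all genes were higher and 12.4% lower. The 3 chains of complement C1q led. C1qa stood at 1054 CPM in the FGFR inhibitor library and 200 CPM in the DMSO library (2.40 [2.18, 2.62]), C1qb at 1428 CPM in the FGFR inhibitor library and 319 CPM in the DMSO library (2.16), and C1qc at 1765 CPM in the FGFR inhibitor library and 423 CPM in the DMSO library (2.06). A C1qa UMI was seen in 37.4% of FGFR inhibitor cells and 13.4% of DMSO cells, and after thinning in 27.9% of 111 FGFR inhibitor cells and 8.85% of 384 DMSO cells. In basal IFE cells the thinned shares were 0.199% with the FGFR inhibitor and 0.251% with DMSO, and C1qa stood at 833 CPM in cluster 6 with the ErbB2 inhibitor.

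Receptors of the same list were also higher in cluster 6. Csf1r, the receptor that macrophages need to survive, had 683 CPM in the FGFR inhibitor library and 270 CPM in the DMSO library (1.34 [1.11, 1.56]). Mrc1, the mannose receptor, had 538 CPM in the FGFR inhibitor library and 222 CPM in the DMSO library (1.28), and the lectin Mgl2 1545 CPM in the FGFR inhibitor library and 561 CPM in the DMSO library (1.46). Apoe, a lipid carrier of macrophages, stayed below 1.5-fold, with 3187 CPM in the FGFR inhibitor library and 2561 CPM in the DMSO library (0.32). Of 9 MHC class II genes 7 were higher (median 0.71). H2-Aa had 9495 CPM in the FGFR inhibitor library and 4936 CPM in the DMSO library (0.94, and -0.16 centred on the cluster's own markers), and was seen after thinning in 87.4% of FGFR inhibitor cells and 84.1% of DMSO cells, beside 0.797% of FGFR inhibitor basal IFE cells and 3.62% of DMSO basal IFE cells. Centred on the cluster's own markers the macrophage median was 0.35 and the MHC class II median -0.39. Keratinocyte markers took 1.41% of this cluster's UMIs in the FGFR inhibitor library and 3.46% in the DMSO library.

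Cluster 7, which led with neutrophil genes, held 89 FGFR inhibitor cells and 227 DMSO cells. Of 13 neutrophil genes 9 were higher and 1 lower (median 0.73), where 24.8% of all genes were higher and 21.7% lower, and the median was -0.05 when centred on its own markers. S100a8, a calcium-binding alarmin, had 44120 CPM in the FGFR inhibitor library and 22725 CPM in the DMSO library (0.96). Il1b, the inflammatory cytokine, led the cluster with 3081 CPM in the FGFR inhibitor library and 1187 CPM in the DMSO library (1.38 [1.16, 1.59]), and stood at 985 CPM with the ErbB2 inhibitor. Il18, a related cytokine, went the other way, with 197 CPM in the FGFR inhibitor library and 418 CPM in the DMSO library (-1.03 [-1.82, -0.41]). B cells held 247 CPM of Il18 in the FGFR inhibitor library and 252 CPM in the DMSO library. Il18 was also among the leading genes of the keratinocyte cluster 13, and Krt5 in cluster 7 had a ratio of -1.53. The part of released RNA in the Il18 ratio was not tested.

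Lymphoid types carried more of their own transcripts on the CPM scale. Of 18 T cell genes 11 were higher and 0 lower (median 0.72), where 17.4% of all genes were higher and 14.5% lower, and the median was -0.06 when centred on T cell markers. Cd8a, the coreceptor of cytotoxic T cells, had 817 CPM in the FGFR inhibitor library and 441 CPM in the DMSO library (0.89 [0.62, 1.16]), and was seen after thinning in 41.7% of 108 FGFR inhibitor cells and 27.5% of 284 DMSO cells. Thinned basal IFE cells with a Cd8a UMI were 0 of 1004 in the FGFR inhibitor library, which allows a share of up to 0.299%, and 6 of 3981 in the DMSO library. Il7r, a survival receptor, had 429 CPM in the FGFR inhibitor library and 191 CPM in the DMSO library (1.17), whereas the granzyme Gzma stood at 1953 CPM in the FGFR inhibitor library and 1749 CPM in the DMSO library (0.16).

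Of 8 B cell genes 7 were higher (median 1.01, and -0.03 centred on B cell markers), where 13.8% of all genes were higher and 16.5% lower. All 7 markers used for this centring are in the list, so the centred value was near 0 by construction. Cd79a, part of the B cell receptor, had 2002 CPM in the FGFR inhibitor library and 881 CPM in the DMSO library (1.18). In dendritic cells, of which there were 34 in the FGFR inhibitor library and 89 in the DMSO library, 3 of 7 dendritic genes were higher and 1 lower (median 0.53, and -0.036 when centred on dendritic markers), with 13.3% of all genes higher and 10.2% lower. Ccl17, a chemokine that attracts T cells, had 734 CPM in FGFR inhibitor dendritic cells and 304 CPM in DMSO dendritic cells (1.26 [0.84, 1.71]), and Rgs1, a brake on chemokine receptors, 531 CPM in the FGFR inhibitor library and 119 CPM in the DMSO library (2.12), with 33.7% of its FGFR inhibitor UMIs in 1 cell.

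Fibroblasts were read in cluster 32 alone, with 38 FGFR inhibitor cells and 161 DMSO cells. Among the 27 genes of the fibrillar matrix list, 8 were higher and 2 lower (median 0.39), where 11.9% of all genes were higher and 9.3% lower. Sparc, a collagen chaperone, had 7092 CPM in the FGFR inhibitor library and 4337 CPM in the DMSO library (0.71 [0.64, 0.78]). The main collagens stayed below 1.5-fold, with Col1a1 at 8670 CPM in the FGFR inhibitor library and 6835 CPM in the DMSO library (0.34) and Col3a1 at 8488 CPM in the FGFR inhibitor library and 6033 CPM in the DMSO library (0.49). Tagln, an actin-binding protein of contractile cells, had 1106 CPM in the FGFR inhibitor library and 485 CPM in the DMSO library (1.19 [1.0, 1.38]). Mmp13, a collagenase, had 0 UMIs in the FGFR inhibitor library and 42 in the DMSO library.

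In the mural cluster 38, 2 of 8 contractile genes were higher and 0 lower (median 0.46, and -0.046 when centred on its own markers), where 14.1% of all genes were higher and 8.44% lower. Tpm2, a tropomyosin of smooth muscle, had 1989 CPM in the FGFR inhibitor library and 993 CPM in the DMSO library (1.0 [0.73, 1.27]), while Acta2, smooth muscle actin, had 4299 CPM in the FGFR inhibitor library and 3795 CPM in the DMSO library (0.18). Of 9 cell cycle genes 6 were higher and 1 lower (median 0.70), but 1 FGFR inhibitor cell held 39.1% of the Top2a UMIs, and in thinned cells the median was -0.10.

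In the interfollicular epidermis, differentiation genes were higher in suprabasal cells of the FGFR inhibitor library, where the clusters that carry them held a larger share of the cells. Of 21 differentiation genes 13 were higher and 1 lower there (median 0.75), where 4.65% of all genes were higher and 11.6% lower. The clusters that led with Flg and Hrnr, 10 and 35, held 194 and 107 of the 1201 FGFR inhibitor cells and 253 and 129 of the 2998 DMSO cells. With clusters weighted to DMSO the median was 0.26 and the ratio of Flg 0.35. Flg, filaggrin of the granular layer, had 2640 CPM in the FGFR inhibitor library and 1176 CPM in the DMSO library (1.17), and Asprv1, the protease that processes it, 858 CPM in the FGFR inhibitor library and 343 CPM in the DMSO library (1.32). Krt10 did not follow, with 62849 CPM in the FGFR inhibitor library and 68377 CPM in the DMSO library (-0.12). In basal IFE cells Krt15 had 3165 CPM in the FGFR inhibitor library and 2169 CPM in the DMSO library (0.55), and Krt5 20673 CPM in the FGFR inhibitor library and 20691 CPM in the DMSO library.

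The same genes recurred across types. Cell cycle genes were lower in 24 of 25 in basal IFE cells (median -1.04), where 8.48% of all genes were lower. They were lower in 22 of 24 in suprabasal IFE cells (median -1.58), where 11.6% of all genes were lower. But in the cycling IFE type 1 of 26 was higher and 0 lower (median 0.11), where 5.62% of all genes were higher and 6.08% lower. Top2a stood at 39.3 CPM in FGFR inhibitor basal cells and 118 CPM in DMSO basal cells, and at 1006 CPM in FGFR inhibitor cycling cells and 1020 CPM in DMSO cycling cells. Suprabasal cells had 3.66 CPM in the FGFR inhibitor library and 30.9 CPM in the DMSO library, below the B cell levels given above. The cycling type itself was a smaller share of the FGFR inhibitor library, as given above. In all cells Top2a had 113 CPM in the FGFR inhibitor library, 111 CPM in the ErbB2 inhibitor library and 191 CPM in the DMSO library.

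Immediate early genes were higher across types in the FGFR inhibitor library. Fos, a component of the AP-1 factor, was higher in 13 of the 15 types in which it was read, with ratios of 0.26 to 3.86 (median 2.19), and Dusp1, a phosphatase induced with it, in 12 of 14 (median 1.29). Over all cells Fos stood at 273 CPM in the FGFR inhibitor library, 24.7 CPM in the ErbB2 inhibitor library and 61.6 CPM in the DMSO library. Basal IFE cells had 10 of 14 of these genes higher (median 1.08), where 4.19% of all genes were higher and 8.48% lower. Hair germ cells had 7 of 13 higher and 1 lower (median 0.66), against 10.6% higher and 6.47% lower of all genes. Sebaceous cells had 6 of 13 higher and 1 lower (median 0.28), against 3.5% higher and 8.23% lower of all genes. In cluster 6, 2 of 13 were higher and 2 lower (median 0.01), near the 14.6% higher and 12.4% lower of all genes.

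Jup was lower in all 16 types (median -1.98) and Calr in 14 of 16 (median -1.22). Both were also lower in the ErbB2 inhibitor library, Jup in 14 types (median -1.56) and Calr in 15 (median -1.42), and those ratios share the DMSO library. Over all cells Jup stood at 194 CPM in the FGFR inhibitor library and 584 CPM in the DMSO library.

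**Figure D2:**
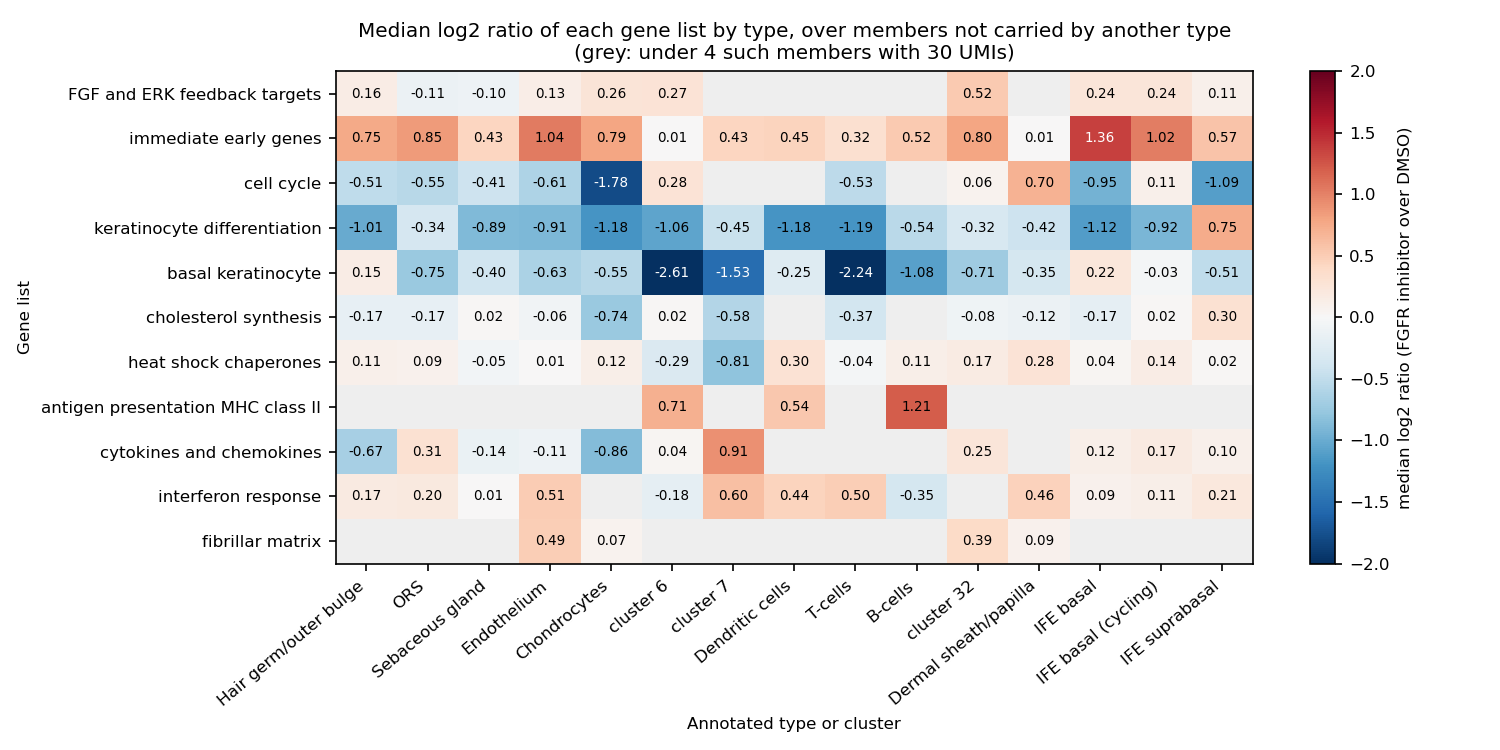
Median log2 ratio, FGFR inhibitor over DMSO (colour), of gene lists (rows) in cell types and clusters (columns), over members not carried mainly by another type. Cell cycle genes have medians of -1.78 in chondrocytes and 0.70 in the mural cluster 38, and immediate early genes 1.04 in endothelium.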

How the data were processed

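Cells were freed by a protease of bacterial origin and Dounce homogenization, and libraries were made with 10x Genomics 3' reagents, per the labels' protocols. Cell Ranger 6.1.1 and the mouse build GRCm38 (mm10) are named in the submitters' processing notes. Which reference the spiny mouse reads were counted on is not stated in the labels, and neither are cell filters. The table deposited by the authors holds UMI counts for 20381 genes, 5345 of them at 0 in every spiny mouse cell, so genes that diverged from the mouse may be undercounted. A second deposited table gives each cell's library, cluster, cell type and total UMI count, per the file headers. No deposited cell had fewer than 501 genes. The percent columns of that table, deposited by the authors, hold each cell's mitochondrial, ribosomal and haemoglobin share.

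With 1 library per group no test was run. UMI counts were summed per library and type, scaled to CPM, and compared as log2 ratios with a pseudocount of 1 UMI and exact conditional binomial 95% intervals. Shares have Clopper-Pearson 95% intervals. Genes needed 30 UMIs over both libraries and counted from 1.5-fold, and a count of 0 was set to a floor of 3 UMIs for bounds. Lists, 37 in all, are given by counts and medians. A gene counted as carried by another type when its CPM was over 10-fold below another type's in both libraries.

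The 5 highest and 5 lowest ratios with at least 100 UMIs were taken per type among genes whose CPM, in the library where they were higher, was at least 1 in 3 of every other type's, a restriction added after seeing the data. To these came members of fitting lists by size of ratio and the FGF pathway genes. Further genes, such as Sox9, Lgr5, Acan, Col2a1, Fasn, Plin2, Apoe, Gzma and Krt5, were chosen after their values were seen. The cell types, gene lists and markers were chosen with earlier results of these data known. Alternatives were another pseudocount, thinning to 1000 UMIs, means over cells, centring, weighting clusters to DMSO, and leaving out the deepest cell or cells led by another type's markers. The scripts were tested on simulated data. Python 3.11.15, numpy 2.4.6, scipy 1.17.1, pandas 2.3.3 and matplotlib 3.10.9 were used.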

Additional observations from a re-analysis of the deposited data

Results flagged for a closer look

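Some results differed in direction between types under the same contrast, and these differences were not tested. Cell cycle genes not carried by another type had a median log2 ratio, FGFR inhibitor over DMSO, of 0.70 in the dermal sheath/papilla type (cluster 38) and -1.78 in chondrocytes. Over all members read, the median of cluster 38 was -0.10 when cells were thinned and -0.13 when cells were weighted equally. The chondrocyte CPM of Top2a was no higher than in B cells of either library, where few UMIs of it were counted. Cytokine and chemokine genes had medians of 0.91 in the circulating monocyte type (cluster 7) and -0.86 in chondrocytes, where it was 0.095 over all members without cells led by another type's markers. Keratinocyte differentiation genes had medians of 0.75 in suprabasal IFE and -1.19 in T cells, where the summed keratinocyte markers were 1.46% of UMIs in the FGFR inhibitor library and 4.37% in the DMSO library. Etv4 had a ratio of 1.48 in chondrocytes, -0.67 in hair germ cells and -0.68 in basal IFE. Fgfr2 had a ratio of 1.27 in the cells the authors left as unknown, on 24 FGFR inhibitor UMIs and 55 DMSO UMIs, and -1.35 in endothelium, which was 0.0034 in thinned cells.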

How the results depend on the processing

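No paired analysis was possible because each group was 1 library. Of 31 alternative values for the 17 shares of cells, 18 stayed within their interval, all 13 others being those with cells of at least 2000 UMIs only. These log2 ratios were -0.63 for B cells, 0.26 for chondrocytes, -1.34 for circulating monocytes, 1.05 for dendritic cells, -0.046 for dermal sheath/papilla, -0.41 for fibroblasts, 1.09 for hair germ, -0.21 for basal IFE, 0.17 for suprabasal IFE, 0.12 for resident macrophages, 0.063 for sebaceous cells, 0.89 for T cells and -1.69 for unknown cells. Of 491 alternative list medians 449 stayed within their spread. Identity lists share members with the own markers, so their centred medians near 0 were partly set by the centring. Centred on own markers, a choice made after seeing the data, medians were -0.022, 0.29 and -0.63 for identity, immediate early and feedback genes of endothelium, 0.35 and -0.39 for macrophage and MHC class II genes of cluster 6, -0.055 for neutrophil genes of cluster 7, -0.064 for T cells, -0.028 for B cells, 0.15 for fibrillar matrix in cluster 32, 0.20 for cell cycle in cluster 38, -0.035, 0.067 and -0.20 for lipid, immediate early and cholesterol genes of sebaceous cells, -0.081 for capillary transport genes of endothelium, -0.042, -0.075 and -0.066 for identity genes of clusters 8, 29 and 17, 0.015 for venous genes of cluster 8 and -1.09 for immediate early genes of cluster 6. Leaving out cells led by another type's markers kept 73 FGFR inhibitor and 68 DMSO sebaceous cells, and 27 and 44 chondrocytes. It kept 101 and 159 cells of cluster 6, and 66 and 68 of cluster 7. Medians were then -1.16 for sebaceous cell cycle genes, -0.28, -1.45, 0.095 and -0.78 for matrix, cholesterol, cytokine and cell cycle genes of chondrocytes, 0.27 for MHC class II genes of cluster 6 and 0.084 for cluster 7. In thinned cells they were 0.46 for sebocyte lipid genes, -0.80 for chondrocyte cell cycle genes and -0.10 for cell cycle genes of cluster 38, whose mean over cells gave -0.13 and whose median with no minimum was 0.26. Endothelial identity had 0.79 as a mean over cells and 0.64 centred on all genes (0.69 in cluster 8), sebaceous cholesterol genes 0.18 as a mean over cells, venous genes of cluster 8 1.06 in thinned cells, hair germ cell cycle genes -0.38 at 100 UMIs, chondrocyte cytokines -0.024 with no minimum, and basal IFE cell cycle genes -0.81 with clusters weighted to DMSO.

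Counts of genes past the fold, in the order thinned cells, at least 100 UMIs, no minimum and 2-fold, were 1919, 351, 4297 and 291 in hair germ, where the count as reported was 1140, and 2016, 220, 4256 and 245 in ORS (909 as reported). They were 2640, 413, 3560 and 325 in sebaceous cells (1022 as reported), with 1806 as means over cells and 2416 without cells led by another type's markers, and 2745, 713, 5267 and 563 in endothelium (1825), with 4224 when centred on own markers. In chondrocytes (1240) they were 2154, 326, 4519 and 403, and in cluster 6 (1438) 2232, 429, 4806 and 509, with 4422 when centred on own markers. Among 137 named gene ratios and 959 alternatives, 9 alternatives changed the sign of a ratio past 1.5-fold. Sign changes of smaller ratios were not counted. These were Acsl1 in sebaceous cells (0.66), Fgfr2 in endothelium (0.0034), Fdps in chondrocytes (0.23) and Top2a in cluster 38 (-0.10) in thinned cells, Top2a in cluster 38 as a mean over cells (-0.13), Top2a in chondrocytes without cells led by another type's markers (0.36), and, centred on own markers, Kdr in endothelium (-0.020), H2-Aa in cluster 6 (-0.16) and Dusp6 in resident macrophages (-0.37). The cause of these shifts was not tested. In several types fewer than 10 cells of a library were led by their own markers, and no value was computed there. Among them were endothelium (61 FGFR inhibitor and 3 DMSO cells led by own markers) and T cells (12 FGFR inhibitor and 1 DMSO). B cells (1 FGFR inhibitor and 0 DMSO) and the hair germ type (1 FGFR inhibitor and 4 DMSO) were others. This alternative is therefore missing for the identity genes of those types. Depth limits the small types most, since the FGFR inhibitor library had 34 dendritic cells and 38 cells of cluster 32.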
